A study of Mus musculus with 8 samples.

Results

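Interleukin and interleukin receptor genes were examined for sites bound by DC-SCRIPT, a nuclear protein with zinc fingers that dendritic cells make from the gene Zfp366. The members were all protein-coding genes of the RefSeq annotation of mouse build GRCm38 whose symbol is Il followed by a digit, without Il10, Il12a, Il12b, Il23a and Il27. This gave 78 of 21900 protein-coding genes. Binding had been profiled by CUT&Tag, in which an antibody brings a transposase to a protein so that the DNA beside it is cut and sequenced. The cells were splenic conventional dendritic cells of type 1 (cDC1), which cross-present antigen, and of type 2 (cDC2), which mainly prime CD4 T cells, from female C57BL/6 mice. The groups were cDC1 of zfp366-/- mice with 2 libraries, cDC1 of zfp366+/+ mice with 3, cDC2 of zfp366-/- mice with 2 and cDC2 of zfp366+/+ mice with 1. Each library came from a pool of mice, whose age is not given in the labels.

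For each subset, the authors deposited a list of 191 bp peaks at which wild-type tags (aligned reads) outnumbered knockout tags at least 4-fold at equal depth, made from 1 combined knockout and 1 combined wild-type set. The cDC1 sets held 12.1 M knockout and 35.5 M wild-type tags, and the cDC2 sets 6.83 M and 4.77 M (M, mega). Values are given as normalised tags, which are tags per 10000000 tags of the set. Single libraries have no value here, so there is no spread between mouse pools and no test between genotypes. Folds are deposited as wild type over knockout and are at least 4 because the list required it. Their 95% intervals are exact and cover counting error only. A peak belonged to a gene when its centre lay inside it or, outside all protein-coding genes, when that gene had the nearest end. Lists of binding sites cannot check the sorted cell types by their markers, nor the deletion of Zfp366, which carried 10 peaks in cDC1 and 1 in cDC2.

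Interleukins are secreted proteins through which leukocytes signal to each other and to tissue cells. Most bind receptors built from a cytokine-specific chain and a chain shared within a family, such as the common gamma chain Il2rg or the gp130 chain Il6st, and act through JAK kinases and STAT factors. The IL-1 and IL-17 families use other receptors that lead to NF-kB. Dendritic cells both release interleukins, which shape the T cell response, and receive them, which adjusts their own survival and maturation.

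In cDC1, 47 of the 78 genes had at least 1 peak, which is 60.3%, against 51.3% of all protein-coding genes. They held 144 peaks, of which 78 were centred inside a member. A peak inside the gene was present for 38 members, or 48.7%, against 37.3% of all genes, and 5 or more peaks were present for 13, or 16.7%, against 8.36%. Of the 144 peaks, 24.3% lay over 10 kb from the gene, against 24.6% of the whole list. In cDC2, 12 members had a peak, which is 15.4%, against 9.53% of all genes. These 12 genes held 15 peaks, and all 12 also had a cDC1 peak. A cDC2 peak inside the gene was present for 5, or 6.41%, against 5.33% of all genes, and no member had 5 or more, against 0.0639%. The remaining 31 members had a peak in neither list. Among receptor chains, 28 of 40 had a cDC1 peak and 10 of 40 a cDC2 peak. Among cytokines, the counts were 16 of 32 and 2 of 32. Of the 4 soluble antagonists, Il22ra2 had a cDC1 peak, while Il18bp, Il1rn and Il1f5 had none. Larger genes and genes with distant neighbours offer more room for a peak, and the part of this in the counts was not tested.

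**Figure D1:**
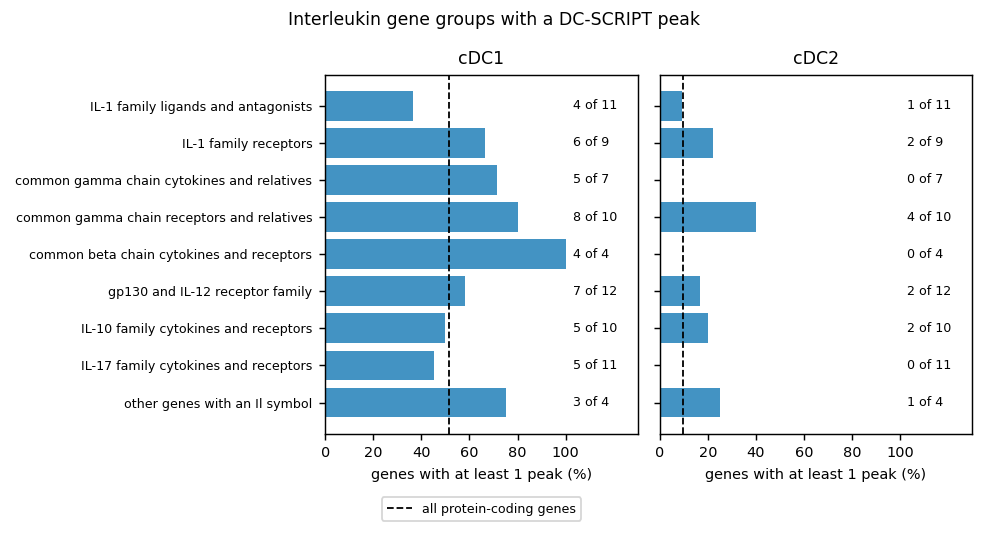
Share of genes with at least 1 peak in each group of interleukin genes, in cDC1 (left) and cDC2 (right), in percent, with the number of genes beside each bar. The dashed line is the share of all protein-coding genes, at 51.3% in cDC1 and 9.53% in cDC2. The receptors of the common gamma chain group, at 8 of 10 and 4 of 10 genes, lie above the line in both subsets. So do the IL-1 family receptors, at 6 and 2 of 9, and the gp130 and IL-12 receptor family, at 7 and 2 of 12. The other genes with an Il symbol, at 3 and 1 of 4, lie above it too, and Il4i1 and Il4i1b among them share a peak. These groups are small, and their distance from the line was not tested.

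The median member peak was close to the median of the whole list in cDC1. In cDC1 their median was 1.24 normalised tags in knockout and 15.7 in wild-type cells, against 1.65 and 15.5 over all 31473 peaks. Their median fold was 12.7, against 10.2 over all peaks. With the peaks at the lowest listed knockout value set to their bound against a floor, the median folds became 8.01 and 7.52. The floor is 3 tags of the whole knockout set, or 2.47 normalised tags for cDC1 and 4.40 for cDC2. In cDC2 the median of the 15 peaks was 5.86 normalised tags in knockout and 29.3 in wild-type cells, against 3.66 and 24.1 over all 2776 peaks. Their median fold was 6.43, against 7.42 over the list. With the 382 peaks of the list at the lowest knockout value, none of them a member's, set to their bound, its median became 6.08, below the 6.43 of the members. A few member peaks stood far above these medians, and 2 of them ranked 19th and 20th of the whole cDC1 list by wild-type tags, at Il2ra and Il6ra.

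**Figure D2:**
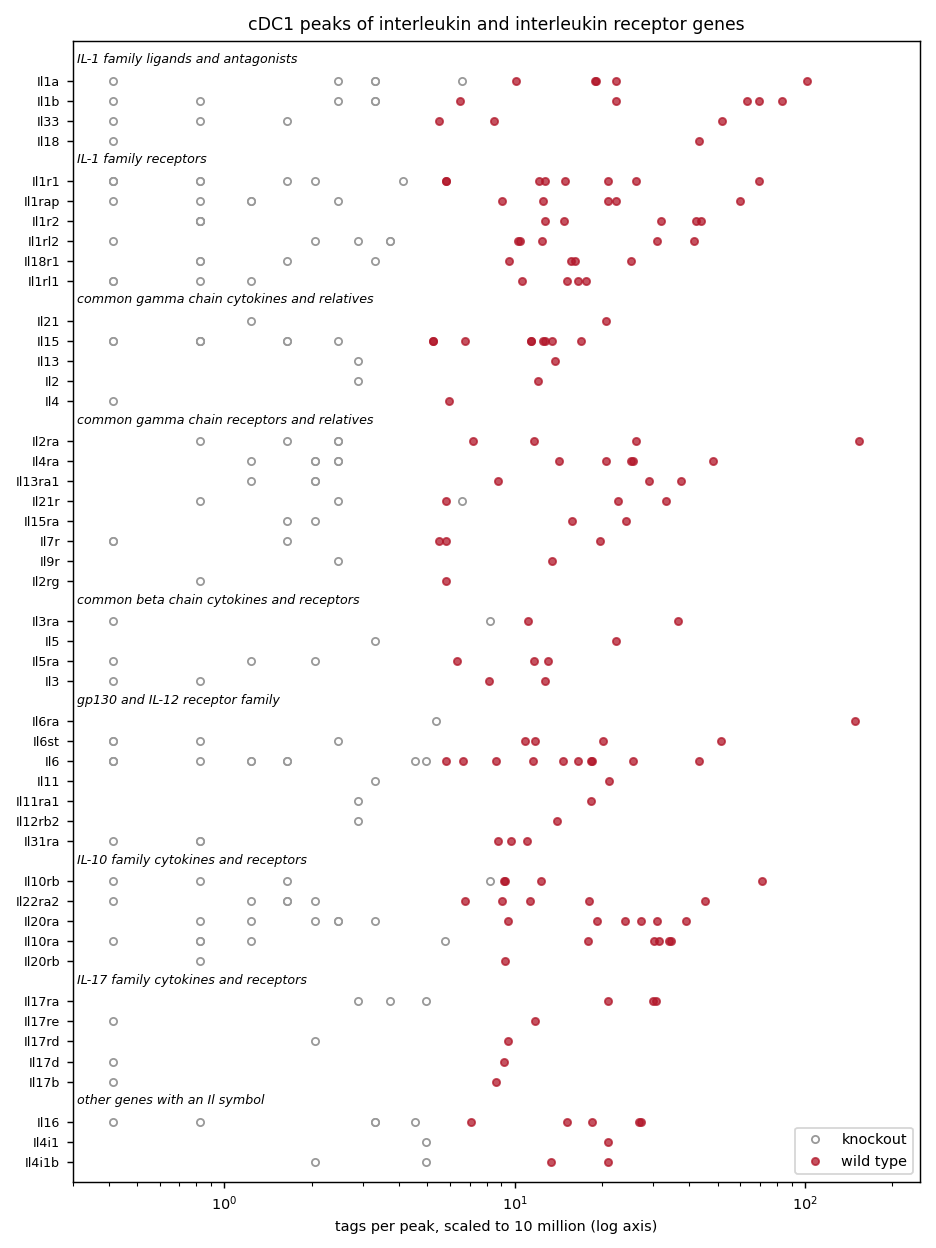
Tags of every cDC1 peak of the 47 genes, in knockout (open) and wild-type (filled) cells, scaled to a total of 10000000 on a log axis, with the genes in rows by family. The highest wild-type values are 153.2 at Il2ra, 148.6 at Il6ra and 101.5 at Il1a, and knockout values at the left edge, 0.412, are the lowest listed.

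The share of member start sites under a peak was near that of all start sites. RefSeq promoter windows of build GRCm38.p6, each 250 bases before to 50 after a start site, matched 64 of the 78 genes with 78 windows. A cDC1 peak overlapped 11 of these windows, or 14.1%, against 16.2% of all 32851 windows. A cDC2 peak overlapped 1, or 1.28%, against 0.962%. In the 5 windows it covered most, the cDC1 peak spanned at least 165 bases. These are printed 5′ to 3′ on the strand of the gene, since they hold the DNA under the peaks themselves, and capitals mark the bases inside the cDC1 peak. The Il7r window, chr15:9529827-9530126 on the minus strand, is the one that also lay under a cDC2 peak. The others are Il1a, chr2:129309923-129310222, minus strand, Il1rap, chr16:26581455-26581754, plus strand, Il1r1, chr1:40224830-40225129, plus strand, and Il4, chr11:53617289-53617588, minus strand. The cDC1 peaks held 19.7 wild-type tags at Il7r, 18.9 at Il1a, 12.5 at Il1rap, 5.92 at Il4 and 5.78 at Il1r1. The last 2 were among the weakest of the list, ranked 30019th and 30295th of 31473 by wild-type tags.
Il7r: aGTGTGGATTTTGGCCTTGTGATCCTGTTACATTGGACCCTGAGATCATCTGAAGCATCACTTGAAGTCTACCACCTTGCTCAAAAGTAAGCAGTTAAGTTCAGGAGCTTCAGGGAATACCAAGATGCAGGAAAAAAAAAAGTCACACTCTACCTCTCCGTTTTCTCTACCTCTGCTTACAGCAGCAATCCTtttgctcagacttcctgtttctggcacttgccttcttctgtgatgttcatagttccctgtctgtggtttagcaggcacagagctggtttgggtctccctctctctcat
Il1a: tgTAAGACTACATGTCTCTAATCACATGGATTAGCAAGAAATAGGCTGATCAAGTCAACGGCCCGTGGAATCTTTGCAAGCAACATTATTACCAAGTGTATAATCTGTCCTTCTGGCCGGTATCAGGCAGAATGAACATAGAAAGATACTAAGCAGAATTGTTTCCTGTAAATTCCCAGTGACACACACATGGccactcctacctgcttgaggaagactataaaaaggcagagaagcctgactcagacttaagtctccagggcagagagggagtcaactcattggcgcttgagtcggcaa
Il1rap: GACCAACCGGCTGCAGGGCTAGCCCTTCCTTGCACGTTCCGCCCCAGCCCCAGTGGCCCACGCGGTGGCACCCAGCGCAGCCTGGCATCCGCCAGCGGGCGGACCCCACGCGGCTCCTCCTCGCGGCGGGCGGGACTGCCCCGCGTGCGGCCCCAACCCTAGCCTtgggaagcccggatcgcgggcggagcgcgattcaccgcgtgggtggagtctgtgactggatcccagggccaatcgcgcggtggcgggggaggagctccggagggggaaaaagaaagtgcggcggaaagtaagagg
Il1r1: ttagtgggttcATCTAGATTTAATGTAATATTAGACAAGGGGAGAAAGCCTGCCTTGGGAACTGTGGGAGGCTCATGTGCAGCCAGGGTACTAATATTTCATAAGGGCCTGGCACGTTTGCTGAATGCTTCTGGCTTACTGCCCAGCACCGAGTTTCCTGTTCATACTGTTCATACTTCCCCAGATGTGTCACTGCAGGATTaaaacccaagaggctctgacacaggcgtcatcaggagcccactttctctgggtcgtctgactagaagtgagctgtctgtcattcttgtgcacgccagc
Il4: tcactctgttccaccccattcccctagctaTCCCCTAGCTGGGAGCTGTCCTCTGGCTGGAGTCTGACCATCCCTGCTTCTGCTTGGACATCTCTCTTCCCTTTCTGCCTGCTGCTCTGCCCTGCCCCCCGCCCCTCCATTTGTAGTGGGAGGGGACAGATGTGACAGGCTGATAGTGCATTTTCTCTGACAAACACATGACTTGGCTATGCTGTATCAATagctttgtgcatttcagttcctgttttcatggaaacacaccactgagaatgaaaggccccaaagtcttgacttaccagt

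A set of 7 motifs was searched on both strands of the 11 windows. GAGGAAGT (PU.1), GGANNTTCC (NF-kB) and CACGTG (E-box) were in none of them, against 3.20%, 4.26% and 7.15% of all windows. GGAAGTG (ETS core), which shares its letters GGAAGT with the PU.1 motif, was in 1, at Il11ra1, against 11.0%. TGANTCA (AP-1) was in 1, against 7.81%. It lay at bases 239 to 245 of the Il1a window, outside the peak. GGAANNGAA (composite ETS and IRF) was in the Il4 window, outside the peak, and in 8.24% of all windows. GAAANNGAA (IRF) was in 2, against 8.56%, at bases 271 to 279 of Il1rap, outside the peak, and at bases 97 to 105 of Il4 on the reverse strand, inside it. Of all matches in these windows, this last was the only one inside a peak, a weak one of 5.92 wild-type tags. A missing match says only that these letters are not in the window. Other forms of the same sites were not searched, and most member peaks lay elsewhere.

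The inflammatory cytokines of the IL-1 family carried the strongest cytokine peaks. Of 11 ligand and antagonist genes, 4 had a cDC1 peak, and they were Il1a, Il1b, Il18 and Il33. The Il36 subfamily, listed as Il1f5, Il1f6, Il1f8 and Il1f9, had none, nor did Il1f10 and the IL-1 receptor antagonist Il1rn. Il1a encodes IL-1 alpha, an alarmin. Its highest peak lay 10.2 kb upstream of its start site, on chromosome 2 at 129320073 to 129320263, between Il1a and Il1b. It held 6.59 normalised tags in knockout and 101.5 in wild-type cDC1, with a fold of 15.4 (95% interval 7.73 to 35.9). The same 191 bp were a cDC2 peak, with 10.3 tags in knockout and 100.5 in wild-type cells at a fold of 9.80 (95% interval 4.41 to 25.7). Wild type above knockout was required of every listed peak, and the wild-type values of the subsets were close. The other 4 Il1a peaks held 10.1 to 22.3 wild-type tags and were listed in cDC1 alone.

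Il1b encodes IL-1 beta, which is cleaved by caspase 1 before release. It had 5 cDC1 peaks, all outside the gene. The highest, at 129380723 to 129380913, lay 9.68 kb upstream of the start site, with 3.30 knockout and 83.7 wild-type tags at a fold of 25.4 (95% interval 9.82 to 93.9). Another, 2.48 kb upstream, held 3.30 knockout and 69.6 wild-type tags, and one 4.30 kb beyond the other end of the gene held 2.47 and 63.0. Knockout tags were few at each of these peaks, which the fold limit of the list favours. No cDC2 peak was assigned to Il1b. Sites outside the cDC2 list have no cDC2 tag value here, and the difference between subsets was not tested. Il33 encodes an alarmin of barrier cells. Its highest peak held 1.65 knockout and 51.7 wild-type tags, with a fold of 31.5 (95% interval 8.59 to 261.9), inside the gene and 5.36 kb upstream of the nearest start site. Il18, a further caspase 1 substrate, had 1 peak of 43.1 wild-type tags, 0.131 kb downstream of its start site. Its knockout value was the lowest listed, 0.5 tag, which also stands for no tag, and the wild-type value was 17.4 times the floor. That peak also lay inside the neighbouring gene Bco2.

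Receptors of the IL-1 family lie mostly in 1 locus. Of 9 genes, 6 had a cDC1 peak, and they held 31 peaks. Side by side stand 6 receptor genes on chromosome 1 from 40084692 to 40551707, a span of 467.0 kb that holds no other protein-coding gene. It contained 23 cDC1 peaks, with 5.78 to 69.6 wild-type tags. Windows of the same length that begin at each of the 21900 genes held a median of 9 peaks, with quartiles of 2 and 15. Il1r1, the signalling receptor for IL-1, had 8 peaks. Its highest, at 40294723 to 40294913 and 28.2 kb downstream of the nearest start site, held 4.12 knockout and 69.6 wild-type tags, with a fold of 16.9 (95% interval 7.15 to 52.5). The remaining 7 ran from 5.78 to 26.1 wild-type tags.

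Il1r2 encodes the decoy receptor, which captures IL-1 without signalling. It had 5 cDC1 peaks, and 3 of them surrounded the lower gene end, from 3.45 kb below it to inside the gene. They held 44.0, 42 and 32.0 wild-type tags, each with 1 knockout tag, or 0.824 normalised. For the first, at 40081146 to 40081336, the fold was 53.3 (95% interval 9.44 to 2122). Its cDC2 peak was a different one, 21.4 kb upstream of the start site, with 5.86 knockout and 26.2 wild-type tags at a fold of 4.65 (95% interval 1.44 to 19.6). It overlapped another cDC1 peak, of 0.824 and 12.7 tags, by 20 bp. Il1rl2, the receptor for IL-36 cytokines, had 5 cDC1 peaks and 1 cDC2 peak. The shared region, inside the gene at 40356111 to 40356301, held 3.71 knockout and 41.4 wild-type tags in cDC1, and 2.93 and 37.7 in cDC2. Il1rl1, which encodes the IL-33 receptor ST2, and Il18r1 had 4 cDC1 peaks each, of 10.6 to 17.6 and of 9.59 to 25.2 wild-type tags. Il18rap, at the upper end of the locus, had none. Il1rap, the accessory chain of the receptors for IL-1, IL-33 and IL-36, lies on chromosome 16 and had 5 peaks inside the gene. The highest held 0.824 knockout and 59.8 wild-type tags, with a fold of 72.6 (95% interval 12.9 to 2879). The neuronal relatives Il1rapl1 and Il1rapl2 had no peak.

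**Figure D3:**
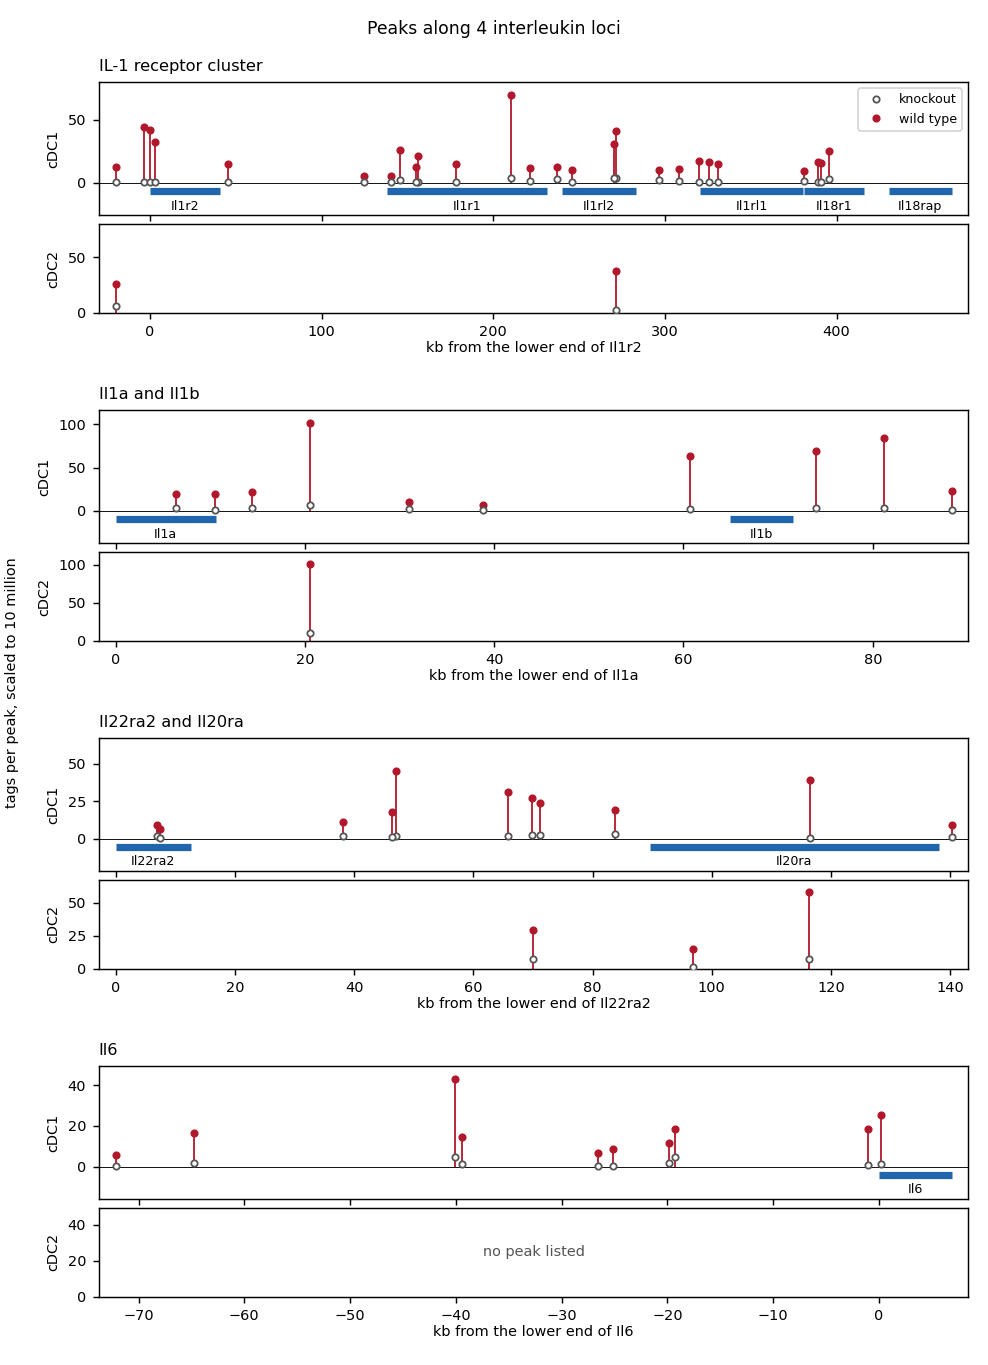
Peaks along 4 loci, with distance in kb from the lower end of the gene named under each pair of panels, and tags scaled to a total of 10000000 in knockout (open) and wild-type (filled) cells. Blue bars are protein-coding genes. Of 5 Il1b peaks and 10 Il6 peaks in cDC1, none was listed in cDC2. Over all cDC1 peaks, 5.61% overlapped a cDC2 peak, so an absence was the usual case. The region between Il1a and Il1b reached 101.5 tags in cDC1 and 100.5 in cDC2.

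In the common gamma chain group, peaks of cytokine genes reached 20.6 wild-type tags and those of receptor genes 153.2 in cDC1. Of 7 cytokine genes, Il15, Il21, Il13, Il2 and Il4 had a cDC1 peak, and Il7 and Il9 had none. None of the 7 had a cDC2 peak, which is near the 9.53% of all genes with one. In cDC1 the share of all genes was 51.3%. Il15 encodes a cytokine that dendritic cells present to NK and CD8 T cells. It carried 9 peaks, all inside the gene, the most inside any member. They were weak, with 5.22 to 16.9 wild-type and 0.412 to 2.47 knockout tags. The highest, at 82374497 to 82374687 of chromosome 8, had a fold of 20.5 with 1 knockout tag (95% interval 3.55 to 824.4). The T cell cytokine genes Il21, Il13, Il2 and Il4 had 1 peak each, of 20.6, 13.8, 12.0 and 5.92 wild-type tags. Those of Il21, Il13 and Il2 lay 18.5, 3.22 and 14.6 kb outside the gene, and that of Il4 inside it.

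Of 10 receptor genes of this group, 8 had a cDC1 peak and 4 a cDC2 peak. Il2ra encodes CD25, the alpha chain of the IL-2 receptor, which activated dendritic cells also display. Its strongest peak, on chromosome 2 at 11637202 to 11637392, lay 5.50 kb upstream of the start site. It held 2.47 knockout and 153.2 wild-type tags in cDC1, with a fold of 61.9 (95% interval 21.1 to 301.9), the highest wild-type value of any member. In cDC2 a peak that overlapped it by 164 bp held 8.79 knockout and 52.4 wild-type tags, with a fold of 5.96 (95% interval 2.39 to 17.8). The other 3 Il2ra peaks lay inside the gene, at 7.19 to 26.1 tags in cDC1. Il4ra, the chain that binds IL-4 and through which IL-13 also signals, had 5 cDC1 and 2 cDC2 peaks, and both cDC2 peaks overlapped a cDC1 peak. The stronger region, 3.91 kb beyond the upper gene end towards Il21r, held 2.47 knockout and 48.2 wild-type tags in cDC1, against 8.79 and 46.1 in cDC2. Il13ra1, which pairs with it, had a shared region 10.8 kb upstream, with 2.06 and 37.5 tags in cDC1 and 6.59 and 27.2 in cDC2.

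Il7r, the IL-7 receptor chain, was the member whose shared region lay at its start site, in the window printed above. It held 1.65 knockout and 19.7 wild-type tags in cDC1, with a fold of 12.1 (95% interval 3.19 to 100.9). In cDC2 it held 1.47 and 17.8 tags, with a fold of 12.2 (95% interval 1.78 to 563.9, 1 knockout tag). Il21r, Il15ra, Il9r and the common chain Il2rg had peaks in cDC1 alone, the highest of 33.3, 24.1, 13.4 and 5.78 wild-type tags. Il2rb, which serves IL-2 and IL-15, and the decoy chain Il13ra2 had none in either list.

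All 4 genes of the common beta chain group had a cDC1 peak and none had a cDC2 peak. Among all genes the shares were 51.3% and 9.53%, so none of 4 in cDC2 is near the share of all genes. Il3ra, the IL-3 receptor alpha chain known as CD123, reached 8.24 knockout and 36.5 wild-type tags 0.544 kb upstream of the nearest start site, with a fold of 4.43 (95% interval 2.34 to 9.50), just above the required 4. Il5, an eosinophil cytokine, had 1 peak 9.99 kb beyond the gene, of 3.30 and 22.4 tags. Il5ra had 3 peaks of 6.34 to 13.0 wild-type tags, and Il3 had 2 of 8.18 and 12.7.

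Of 12 genes of the gp130 and IL-12 receptor family, 7 had a cDC1 peak and 2 a cDC2 peak. Il6ra, the alpha chain that binds IL-6, had 1 peak, inside the gene and 1.81 kb downstream of the nearest start site, on chromosome 3 at 89911295 to 89911485. It held 5.36 knockout and 148.6 wild-type tags in cDC1, with a fold of 27.7 (95% interval 12.4 to 64.4). In cDC2 the region, displaced by 1 bp, held 16.1 and 94.2 tags with a fold of 5.85 (95% interval 2.98 to 12.5). The knockout value in cDC2, 11 tags, was the highest among the member peaks of that list. Il6st encodes gp130, the signalling chain. Its 4 cDC1 peaks all lay below the gene, and the highest, 24.0 kb upstream, held 0.824 knockout and 51.2 wild-type tags at a fold of 62.0 (95% interval 11.0 to 2473). The cDC2 peak of Il6st, of 5.86 and 33.5 tags, had its centre 243 bp away and shared no base with it.

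Il6, a cytokine released by dendritic cells on stimulation, carried 10 cDC1 peaks, more than any other member, and no cDC2 peak. Only 9.53% of all genes had a cDC2 peak. The Il6 peaks were spread from inside the gene to 72.2 kb upstream of it. Beyond the farthest of these peaks the next protein-coding gene, Dnajb6, lay 154.5 kb away, so a wide stretch was assigned to Il6. The highest, on chromosome 5 at 29972940 to 29973130, lay 40.1 kb upstream, with 4.94 knockout and 43.0 wild-type tags at a fold of 8.69 (95% interval 3.92 to 24.2). The nearest to the start site, 0.192 kb downstream of it, held 1.24 and 25.5 tags, and the next, 0.993 kb upstream, 0.824 and 18.5. Of the 10, 3 had the lowest listed knockout value. Il31ra had 3 peaks of 8.74 to 11.0 wild-type tags. Il11, Il11ra1 and Il12rb2 had 1 each, of 21.1, 18.3 and 14.0. Il12rb1, Il23r, Il27ra, Il31 and Il11ra2 had none, and the sources used here do not say how reads that match both Il11ra1 and its near copy Il11ra2 were placed.

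Within the IL-10 family, 5 of 10 genes had a cDC1 peak, and all 5 encode receptor chains or the binding protein Il22ra2. The cytokine genes Il19, Il20, Il22 and Il24 and the receptor Il22ra1 had none in either list. Il10rb, a chain shared by several receptors of the family, had its highest peak 26.3 kb beyond the gene, towards Ifnar1, with 8.24 knockout and 71.2 wild-type tags at a fold of 8.63 (95% interval 4.63 to 18.3). Il10ra, through which IL-10 restrains dendritic cells, had 5 peaks, and 4 of them lay outside the gene at 30.3 to 34.7 wild-type tags. The strongest, 12.0 kb beyond the upper end, had the lowest listed knockout value, and its wild-type value was 14.0 times the floor. Il22ra2, a soluble protein that captures IL-22, and Il20ra are neighbours on chromosome 10, and 10 cDC1 and 3 cDC2 peaks lay between 19622028 and 19760053, the span of both. Windows of that length at all genes held a median of 2 cDC1 peaks, with quartiles of 0 and 5. The region inside Il20ra, a receptor chain for IL-19, IL-20 and IL-24, held 0.824 knockout and 39.0 wild-type tags in cDC1 and 7.33 and 58.6 in cDC2. The strongest peak nearest to Il22ra2, 34.4 kb above it, held 2.06 and 45.1 tags in cDC1. Il20rb had 1 peak in each list, 12313 bp apart, of 9.30 wild-type tags in cDC1 and 17.8 in cDC2.

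The IL-17 family had no peak above 30.6 wild-type tags. Of 11 genes, 5 had a cDC1 peak, which is 45.5%, against 51.3% of all genes. None had a cDC2 peak, against 9.53% of all genes. With 11 genes, these counts are near the shares of all genes. Il17ra, the receptor chain common to the family, had 3 peaks inside the gene of 20.9 to 30.6 wild-type tags, and the highest had a fold of 10.6 (95% interval 3.54 to 34.8). Il17re, Il17rd, Il17d and Il17b had 1 peak each of 8.60 to 11.8 wild-type tags, and that of Il17b lay 44.0 kb from the gene. Il17a, Il17c, Il17f, Il25, Il17rb and Il17rc had none. Of the genes in no family, Il16, which encodes a CD4 ligand, had 5 cDC1 peaks of 7.05 to 27.3 wild-type tags. It had 1 cDC2 peak of 1.47 knockout and 17.8 wild-type tags, 3180 bp from the nearest cDC1 peak. Il4i1 encodes an amino acid oxidase, not a cytokine. Its 1 peak, of 4.94 and 21.0 tags, also lay inside Il4i1b, a gene annotated across it, and counted as 1 of the 144. The gene to which this peak belongs cannot be told apart. Il4i1b had a further peak of 2.06 knockout and 13.3 wild-type tags, outside Il4i1 and also inside Nup62. Il34 had no peak.

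The subsets were then set side by side at the 15 cDC2 peaks of members. Of these, 11 shared 1 bp or more with a cDC1 peak. That is 73.3%, with an exact 95% interval of 44.9% to 92.2%, against 63.7% of all cDC2 peaks. They belonged to 9 genes, or 11.5% of the members, against 6.56% of all genes. As a share of the 144 cDC1 peaks, the 11 overlapping ones were 7.64%, against 5.61% of the whole list. Over these 11 regions the median was 2.47 knockout and 39.0 wild-type tags in cDC1, and 7.33 and 37.7 in cDC2. The fold was higher in cDC1 at 9 of the 11, with a median of 15.4 in cDC1 and 5.96 in cDC2. Over all 1767 shared regions the fold was higher in cDC1 at 1365, and the median folds were 14.4 and 6.83. Each knockout set has its own depth and its own library pools, and their part in this difference was not tested.

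Wild-type signal at 8 of the 11 shared regions did not differ between the subsets beyond counting error, and at 3 it did. The ratio of cDC1 to cDC2 wild-type tags had a median of 1.05, against 1.09 over all shared regions. At the 8 regions its 95% interval held 1, which does not show that they are equal. Il2ra was higher in cDC1 with a ratio of 2.92 (95% interval 1.96 to 4.57), and so was Il6ra with 1.58 (95% interval 1.16 to 2.19). The Il1r2 region was lower in cDC1, at 0.485 (95% interval 0.247 to 0.942). There the 2 peaks overlapped by 20 bp only, so the ratio compares mostly different bases. The 11 intervals were not corrected for their number, and the ratios rest on scaling each set to its total tags. A single wild-type library of cDC2 stands behind these ratios, so the spread between mouse pools cannot be set against them.

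**Figure D4:**
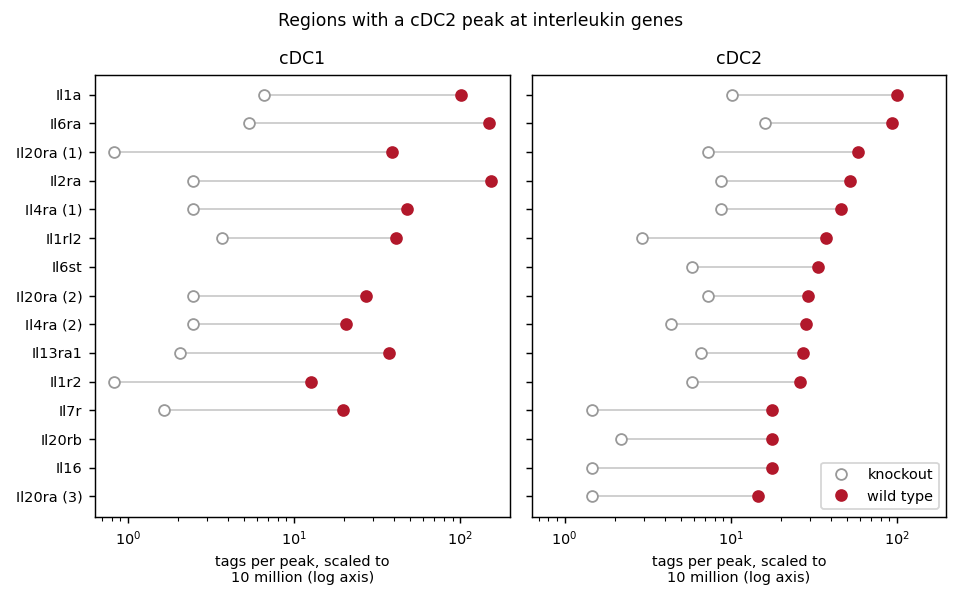
Tags of the 15 regions with a cDC2 peak at interleukin genes, in knockout (open) and wild-type (filled) cells of cDC1 (left) and cDC2 (right), scaled to a total of 10000000 on log axes. Genes with several regions are numbered by cDC2 wild-type tags, and rows empty on the left had no overlapping cDC1 peak. Il2ra reaches 153.2 wild-type tags in cDC1 and 52.4 in cDC2, while Il1a reaches 101.5 and 100.5.

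The cDC1 member peaks were also read against the tag threshold of the cDC2 list. This threshold, 7 tags, equals 14.7 normalised tags, the lowest peak listed had 12.6, and 66 of the 144 cDC1 member peaks lay below it. Of those 66, 1 overlapped a cDC2 peak, that of Il1r2, with 12.7 wild-type tags in cDC1 and 26.2 in cDC2. Of the 47 peaks from the threshold to under 30 normalised tags, 3 did. Of the 31 peaks with 30 or more, 7 did, which is 22.6% (exact 95% interval 9.59% to 41.1%), against 15.5% of all cDC1 peaks of that strength. At 50 or more tags, 3 of 11 overlapped, those of Il2ra, Il6ra and Il1a. The 8 that did not were 3 of Il1b and 1 each of Il10rb, Il1r1, Il1rap, Il33 and Il6st. Among all cDC1 peaks of 50 or more tags, 22.2% overlapped, so most peaks were absent from the cDC2 list at this strength too. The part of depth in these absences was not tested.

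Genes that act with interleukin receptors were counted beside the members. Of 41 such genes, 36 had a cDC1 peak, which is 87.8%, and 12 a cDC2 peak, 29.3%, against the 51.3% and 9.53% of all genes. All 8 partner receptor chains had a cDC1 peak, among them Csf2ra, the GM-CSF receptor alpha chain, with 11.1 knockout and 102.3 wild-type tags at its highest-scoring peak. Crlf2, the TSLP receptor chain that pairs with Il7r, had 4.53 and 83.0 tags. Of 11 JAK and STAT genes, 10 had a cDC1 peak and 4 a cDC2 peak. Jak2 held 7.0 knockout and 83.0 wild-type tags in cDC1 and Stat3 12.8 and 79.9, while Jak3, the kinase of the common gamma chain, had no peak. Of 9 genes that signal from IL-1 receptors, 8 had a cDC1 peak and 3 a cDC2 peak. These 3 were the receptor-associated kinase genes Irak2, Irak3 and Irak4. Irak2 held 3.71 and 74.4 tags in cDC1 and 4.40 and 37.7 in cDC2, and Tab2, an adaptor of the same route, 2.06 and 50.9 in cDC1. All 8 suppressors of cytokine signalling had a cDC1 peak, with Socs3 at 8.65 and 45.1 tags and Socs1 at 5.36 and 36.2. Of 5 genes of the inflammasome and IL-1 processing, Nlrp3, its sensor, had 6 cDC1 and 3 cDC2 peaks, and its highest-scoring cDC1 peak held 4.53 knockout and 103.8 wild-type tags. Casp1, which cleaves the IL-1 beta precursor, had 2 weak cDC1 peaks, the higher-scoring with 6.77 wild-type tags. Pycard, Casp4 and Gsdmd had none.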

How the data were processed

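The study's 8 CUT&Tag libraries, 2 knockout and 3 wild-type of cDC1 and 2 knockout and 1 wild-type of cDC2, were grouped from their titles. Per the file headers, HOMER findPeaks in factor style compared 1 set of wild-type tags with 1 set of knockout tags, with a false discovery rate of 0.001, a fold of at least 4 over knockout and over the surrounding 10 kb, a Poisson p of at most 0.0001 and at most 1 tag counted per position. Which libraries entered each set, and the aligner: not given in the sources used here. Builds in the submitters' processing notes are GRCm38 and mm10.

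The deposited signal is wild-type tags scaled by the authors to 10000000. The deposited score is HOMER's, in unscaled wild-type tags, and served to rank peaks within a list. The deposited fold is the ratio of tags at equal depth. The deposited p-value of each peak and the deposited focus ratio, a fraction, were not used for any result. The knockout depths were worked out here from the scaling between columns, and knockout tags were put back on their own scale. Where knockout tags were above the lowest listed value, 0.5, the fold carries an exact (Clopper-Pearson) 95% interval with tags rounded to whole numbers, which covers counting error only. Otherwise the wild-type value was compared with a floor of 3 knockout tags.

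Peak centres were placed on the 21900 protein-coding genes of a RefSeq table of GRCm38.p6; a centre inside several genes counted for each, and 11 cDC1 and 1 cDC2 peaks on unplaced sequences had none. The planned genotype test per library was not made, because the files hold combined sets. Members, gene lists and rules were chosen with earlier results of these data known. Named were every member with a cDC2 peak, the 3 highest-scoring genes per family and those with 5 or more peaks in cDC1, and the 2 highest-scoring genes per pathway list. Further members were named after their values were seen. Alternatives varied the assignment, score, fold and overlap limits. Python 3.11.15, pandas 2.3.3 and scipy 1.17.1 were used, and assignment and intervals were tested on simulated data.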

Additional observations from a re-analysis of the deposited data

How the results depend on the processing

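With peaks assigned to all genes of the annotation, with peaks within 10 kb of a gene, with the 50% of peaks of higher score and, chosen after seeing the data, without the enzyme genes Il4i1 and Il4i1b, the number of members with a peak ran from 33 to 45 in cDC1, against 47, and from 8 to 12 in cDC2, against 12. With peaks centred inside the gene it was 38 in cDC1, which is 48.7% of members against 37.3% of all genes. In cDC2 it was 5, or 6.41% against 5.33%. With a fold of at least 8 it was 36 in cDC1, or 46.2% against 38.5%. In cDC2 that fold left 6, or 7.69% against 5.01%. The higher-scoring 50% of peaks left 42.3% of members in cDC1 against 35.1% of all genes, and 11.5% in cDC2 against 5.24%. Peaks inside or within 10 kb left 55.1% against 47.8% in cDC1 and 10.3% against 7.50% in cDC2. These limits keep fewer peaks by construction. The number of cDC2 peaks shared with cDC1 was 9 when 50% of the shorter peak had to overlap, 12 with centres within 1 kb and 9 with the higher-scoring peaks, against 11. Taken over the highest peak of each gene, the median wild-type signal in cDC1 was 24.1 normalised tags and the median fold 20.5, against 15.7 and 12.7 over peaks. The same median in cDC2 was 35.6 for signal, against 29.3, and 7.27 for fold, against 6.43. Leaving out single libraries was not run, because the tables hold combined sets of tags. No paired analysis was possible because no value per library was used. In cDC2 the threshold of the peak caller was 7 wild-type tags, and the lowest peak listed had 12.6 normalised tags.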
